A study of Mus musculus with 6 samples.

Results

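The genes described here are the metalloproteases of the ADAM, ADAMTS and MMP families, the ADAMTS-like proteins, and the TIMP inhibitors, in a comparison of mouse liposarcoma cells labelled NICD knockout with wild-type cells. A gene was included when its symbol was Adam, Adamts, Adamtsl, Mmp or Timp followed by a number and at most 1 letter, with Adam10 and Adam17 left out. This rule uses names only, not measured values. It found 47 of the 14472 genes in the authors' deposited table, made up of 11 ADAM, 13 ADAMTS, 4 ADAMTS-like, 16 MMP and 3 TIMP genes. A mouse annotation holds 82 genes of these names, and the other 35 were not analysed here.

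The cells are mLPS1, a line grown from a mouse dedifferentiated liposarcoma, which is a soft-tissue cancer related to fat. The wild-type group is 3 libraries of mLPS1 cells, with p numbers 35, 37 and 40, and the NICD knockout group is 3 libraries of the altered line, with p numbers 34, 36 and 39. The labels do not say what the p number means, whether the altered line is a single clone, how the allele was made, or whether each library had its own culture. The p-values therefore cover only the spread among these 6 libraries, and that spread may be technical. NICD is the intracellular domain of a Notch receptor, which on release enters the nucleus and activates genes with the DNA-binding protein Rbpj. The genotype label reads knockout but the title of the series names over-expression, and the direction used here, knockout over wild type, rests on the name the authors gave their table. With the direction turned, the fitted levels of the groups would change places throughout.

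For every gene the table lists the mean of its normalised counts, the log2 fold change and the standard error (SE) of that change, and a p-value adjusted over all genes. A gene is called here at an adjusted p under 0.05. Single-library values were not used here, so spread is given as the SE or as a 95% Wald interval. The level in each group, called the fitted level and given in normalised counts per library, was computed from that mean and fold change by taking 3 libraries on each side. The mean normalised counts of all genes sum to 21033526, which is the average depth after scaling. In a population of cells, fewer cells of a type and less RNA per cell cannot be told apart.

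Metalloproteases of these families cut proteins with a zinc ion held in the active site. MMPs and ADAMTS proteases are mostly secreted or tethered to the cell surface and act on collagens and proteoglycans, while ADAMs are membrane proteins, some of which release growth factors and receptors from the surface. TIMPs bind the active site of these enzymes and block it, and Notch receptors are themselves cut by ADAM proteases before NICD is released.

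Of the 47 genes, 25 were called in the authors' deposited table, which is 53.2% against 50.5% of all genes with a p. Their directions were unequal, with 19 lower and 6 higher in the knockout. The 19 genes that fell are 40.4% of the 47, against 25.1% of all genes, and the 6 that rose are 12.8%, against 25.4%. Among genes called and changed at least 2-fold, 16 members (34%) fell, against 9.74% of all genes, and 5 (10.6%) rose, against 13.4%. The median log2 fold change of the 47 was -0.36, against 0.02 over all genes, and the median size of the change regardless of sign was 1.33, against 0.52.

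The same split was seen among genes with more reads. Of 29 members with a mean of at least 100 normalised counts, 18 (62.1%) were called, against 54.6% of all such genes. Within these 29, 15 (51.7%) fell, against 30.2%, and 3 (10.3%) rose, against 24.4%. The other 18 members had a mean below 100, 10 of them below 10. Of these 18, 4 (22.2%) fell, against 11.6% of all genes with a mean below 100. A further 3 (16.7%) rose, against 28.1%. These counts are a description of the list, and no test was made of the list as a whole.

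**Figure D1:**
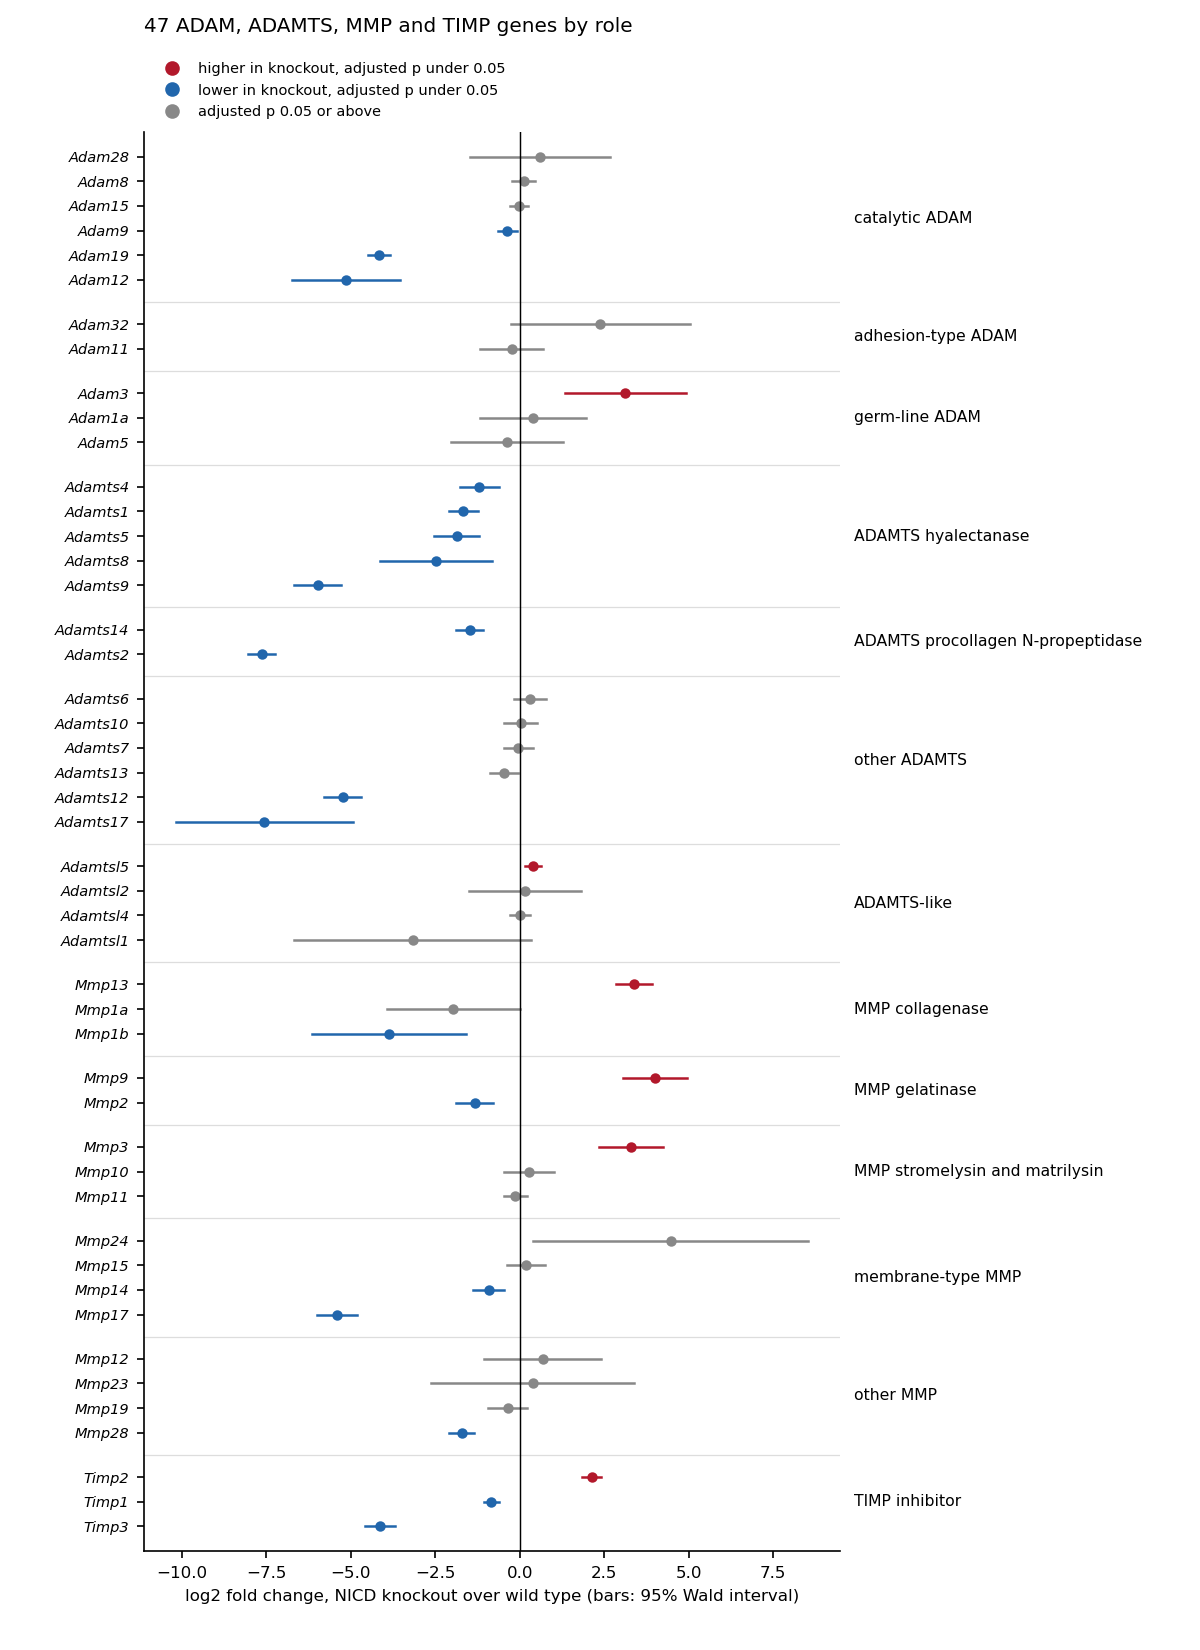
Log2 fold change, knockout over wild type, of all 47 genes on the horizontal axis, grouped by role, with dots for the authors' deposited estimates and bars for 95% Wald intervals. Colours mark genes called higher, called lower or not called, and no ADAMTS gene stands among the 6 that rose.

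The ADAMTS family held 9 of the 19 decreases, more than any other of the 5 groups. Of its 13 tested genes 9 (69.2%, against 25.1% of all genes) fell in the authors' deposited table and none rose, and the median log2 fold change was -1.67. The summed fitted level of the family was 15625 in wild type and 2478 in the knockout, a log2 ratio of -2.66.

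Adamts2 and Adamts14 encode procollagen N-propeptidases, which cut the amino-terminal propeptide from fibrillar procollagen so that fibrils can form. Adamts2 (ENSMUSG00000036545) had a fitted level of 7019 in wild type and 35.4 in the knockout. Its log2 fold change of -7.63 (SE 0.20, interval -8.03 to -7.23) in the authors' deposited table is a 198-fold fall, and its adjusted p is too small for the table to hold and is listed as 0. It was the steepest called decrease among the 47 genes without a group below 1 normalised count. Adamts14 was at 1462 and 526.2, and its log2 fold change of -1.47 (SE 0.20, interval -1.87 to -1.08, adjusted p = 4.1e-12) in the authors' deposited table is a 2.78-fold fall. Both tested genes of this kind fell (100%, against 25.1% of all genes), and the third, Adamts3, was not analysed here.

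The 5 tested hyalectanases, which cleave aggrecan, versican and related proteoglycans, all fell in the authors' deposited table (100%, against 25.1% of all genes). Their median log2 fold change was -1.87. Adamts9 was at 630.0 in wild type and 9.99 in the knockout, and fell by 5.98 on the log2 scale (SE 0.36, adjusted p = 6.85e-60) in the authors' deposited table, a 63.0-fold change. Adamts1 was at 735.7 and 231.9, a 3.17-fold fall with a log2 fold change of -1.67 (SE 0.22, adjusted p = 2.35e-13) in the authors' deposited table. Adamts4, a main aggrecan-cleaving enzyme, was at 1514 and 663.2 and fell 2.28-fold (log2 fold change -1.19, SE 0.29, adjusted p = 1.37e-04 in the authors' deposited table). With the median change of neighbouring genes subtracted, Adamts1 changed by -0.51 (adjusted p = 0.0413 from the shifted DESeq2 estimate). Adamts5, the other main aggrecan-cleaving enzyme, was at 113.1 and 31.0, and fell 3.65-fold (log2 fold change -1.87, SE 0.34, adjusted p = 2.28e-07 in the authors' deposited table), but with the neighbour median subtracted it changed by -0.67 and was not called (adjusted p = 0.0908 from the shifted DESeq2 estimate). Adamts8 was near the lower end of measurement, at 20.8 and 3.73, and fell by 2.47 on the log2 scale in the authors' deposited table.

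Among the other 6 ADAMTS genes, 2 fell (33.3%, against 25.1% of all genes) and 4 were not called. The 33.3% called compares with 50.5% of all genes. Adamts12, a protease reported to act on cartilage matrix protein, was at 3190 in wild type and 84.9 in the knockout, with a log2 fold change of -5.23 (SE 0.28, interval -5.78 to -4.69, adjusted p = 1.24e-76) in the authors' deposited table, a 37.6-fold fall. Adamts17 was fitted at 32.0 in wild type and below 1 normalised count in the knockout, and if a floor of 1 per library, or 3 over the group, stands in for the latter, these levels differ 32.0-fold (adjusted p = 1.07e-07 in the authors' deposited table). The other 4 did not pass the test. Adamts10, which binds fibrillin, was at 211.7 and 216.4, Adamts6, its close relative, at 212.4 and 261.9, and Adamts7 at 244.8 and 238.8. Adamts13, the protease of von Willebrand factor, was at 239.9 and 174.4, with an adjusted p of 0.0638 and a log2 interval of -0.88 to -0.04 in the authors' deposited table.

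The ADAMTS-like proteins carry the accessory domains of ADAMTS but no protease domain. None of the 4 tested fell, against 25.1% of all genes, and 1 (25%) rose, against 25.4%. Adamtsl5 was at 922.9 in wild type and 1205 in the knockout, and rose 1.31-fold (log2 fold change 0.38, SE 0.12, adjusted p = 0.00458 in the authors' deposited table). Adamtsl4, which binds fibrillin, was at 971.6 and 978.5, and its log2 interval of -0.29 to 0.31 in the authors' deposited table bounds any change to well under 2-fold. Adamtsl2 (6.92 and 7.77) and Adamtsl1 (8.20 in wild type, below 1 in the knockout) were too low to show a change of moderate size.

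Among 6 tested ADAMs with an active protease site, 3 fell and none rose, so 50% were called, against 50.5% of all genes. Adam19, a shedding enzyme of neuregulins, was at 1486 in wild type and 82.7 in the knockout, an 18.0-fold fall with a log2 fold change of -4.17 (SE 0.16, interval -4.49 to -3.84, adjusted p = 1.11e-138) in the authors' deposited table. Adam12, a protease expressed in mesenchymal cells and in many tumours, was at 402.4 and 11.4, with a log2 fold change of -5.14 (SE 0.81, interval -6.73 to -3.54, adjusted p = 2.04e-09) in the authors' deposited table. Its SE compares with a median of 0.16 over genes with a mean of at least 100, so the fold of 35.2 is known less closely than that of Adam19. Adam9 was at 3984 and 3081, a 1.29-fold fall (log2 fold change -0.37, SE 0.14, adjusted p = 0.0227 in the authors' deposited table), and this call was lost when centred on expressed genes (adjusted p = 0.0517 from the shifted DESeq2 estimate) or with the neighbour median subtracted (adjusted p = 0.0593). Adam15 was at 3581 and 3521 and Adam8 at 1160 and 1260, with a log2 interval of -0.22 to 0.45 for Adam8 from the authors' deposited table, and neither was called. Adam28 was at 4.31 and 6.53 and was not called.

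The ADAMs without protease activity and those of the germ line were low throughout. Adam11, an adhesion-type ADAM of the nervous system, was at 31.3 and 26.6, and Adam32 at 1.71 and 8.97, neither called. Of the germ-line ADAMs, which act in sperm, Adam3 was at 2.64 in wild type and 23.1 in the knockout (log2 fold change 3.13, SE 0.92, adjusted p = 0.0019 in the authors' deposited table). Adam5, at 11.3 and 8.75, and Adam1a, at 8.24 and 10.9, were not called. Adam3 and Adam5 are related neighbours, and so are Adam1a and Adam1b, and the sources used here do not say how reads were split between such relatives.

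**Figure D2:**
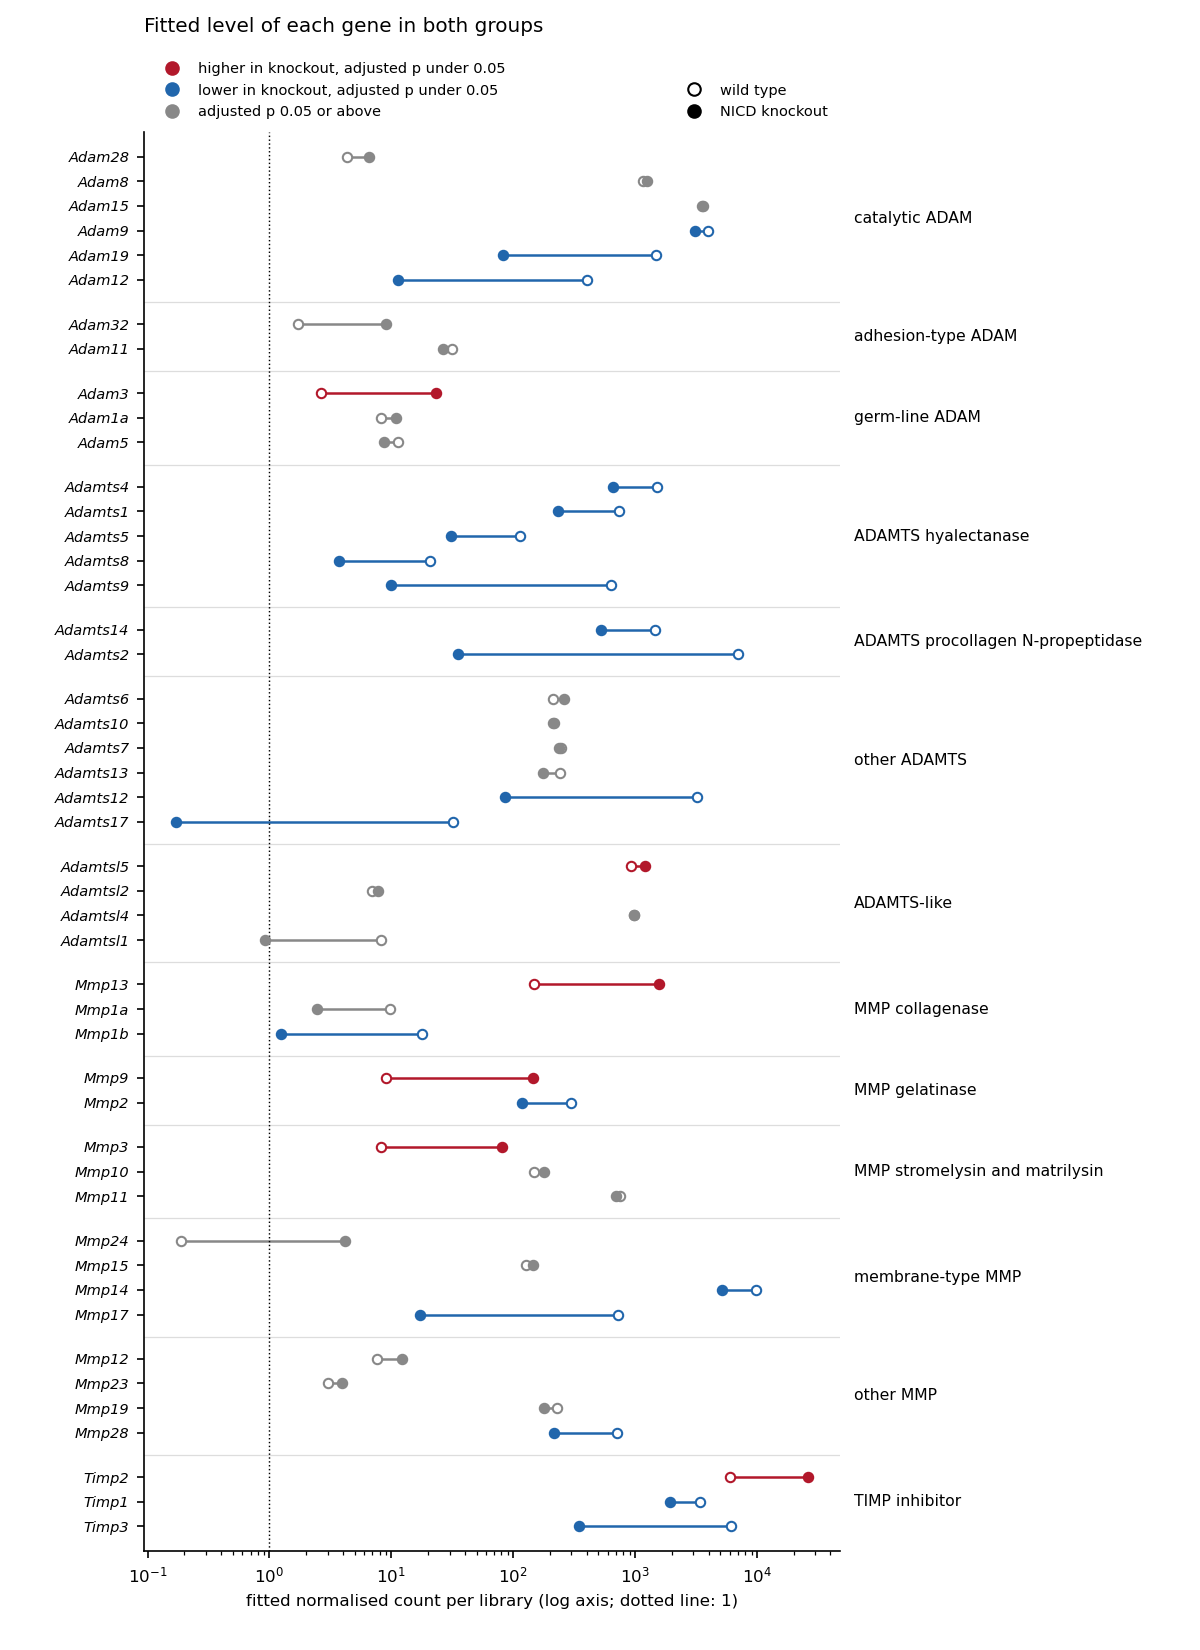
Fitted level of each of the 47 genes, in normalised counts per library on a log axis, with open circles for wild type and filled circles for the NICD knockout, coloured by call. Lines join the groups, and the dotted line marks the floor of 1, below which Adamts17, Adamtsl1 and Mmp24 lie in 1 group.

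The 16 tested MMP genes moved both ways, with 3 that rose, 5 that fell (50% called, against 50.5% of all genes) and, over the authors' deposited table, a median log2 fold change of 0.03. Mmp13, Mmp9 and Mmp3 rose, and Mmp14, Mmp17, Mmp2, Mmp28 and Mmp1b fell. The family's summed fitted level was 13020 in wild type and 8542 in the knockout, a log2 ratio of -0.61, and without Mmp14 the other 15 summed to 3194 and 3358.

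Membrane-type MMPs act at the cell surface. Mmp14 (ENSMUSG00000000957), the main activator of pro-Mmp2, was at 9826 in wild type and 5185 in the knockout, a 1.90-fold fall. Its log2 fold change was -0.92 (SE 0.23, interval -1.37 to -0.48, adjusted p = 1.82e-04) in the authors' deposited table. Mmp17, which is anchored by a lipid rather than a protein segment, fell further, from 725.3 to 17.1, with a log2 fold change of -5.41 (SE 0.30, interval -6.00 to -4.82, adjusted p = 1.26e-69) in the authors' deposited table, a 42.5-fold change. Mmp15 was at 126.4 and 143.8 and was not called. Mmp24 was below 1 in wild type and at 4.18 in the knockout, too low for a fold to be read, and was not called.

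The gelatinases, which degrade denatured collagen and basement membrane, moved in opposite directions. Mmp2 was at 296.3 in wild type and 118.0 in the knockout, a 2.51-fold fall (log2 fold change -1.33, SE 0.28, adjusted p = 1.15e-05 in the authors' deposited table). Mmp9 was at 9.08 and 145.6, a 16.0-fold rise (log2 fold change 4.0, SE 0.48, adjusted p = 1.06e-15 in the authors' deposited table). The log2 intervals of the pair, -1.88 to -0.78 for Mmp2 and 3.06 to 4.94 for Mmp9, lie on opposite sides of 0.

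Mmp9, Mmp12 and Adam8 are also made by leukocytes, and some leukocyte markers rose with Mmp9. Of 8 such markers listed, 5 had a value, and 3 of these (60%) were called higher, against 25.4% of all genes. Cd68 was at 179.0 in wild type and 2238 in the knockout, with a log2 fold change of 3.64 and an adjusted p of 1.42e-84 in the authors' deposited table, and Lyz2 (88.1 and 157.1) and Cd79a (10.1 and 62.4) were also called higher. Ptprc, the pan-leukocyte marker, was at 3.74 and 13.7 and Csf1r at 20.8 and 22.5, neither called, and Adgre1, Itgam and Cd3e were not analysed here. The summed fitted level of the 5 was 301.8 and 2493, of which Cd68 alone held 179.0 and 2238. The part of other cells in the Mmp9 result was not tested.

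The collagenases cleave fibrillar collagen within the triple helix. Mmp13 (ENSMUSG00000050578) was at 149.3 in wild type and 1564 in the knockout, a 10.5-fold rise with a log2 fold change of 3.39 (SE 0.27, interval 2.86 to 3.92, adjusted p = 1.93e-34) in the authors' deposited table. It was the only MMP with a mean of at least 100 that rose. Mmp1b fell from 17.9 to 1.24 (log2 fold change -3.85, SE 1.16, adjusted p = 0.00264 in the authors' deposited table). Mmp1a, its paralogue in the same cluster, was at 9.67 and 2.48 with an adjusted p of 0.0913 in the authors' deposited table, and how reads were divided between such paralogues was not tested. Mmp8 was not analysed here.

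Of the stromelysins, which degrade many matrix proteins and activate other MMPs, Mmp3 was at 8.24 in wild type and 80.7 in the knockout, a 9.80-fold rise (log2 fold change 3.29, SE 0.49, adjusted p = 1.53e-10 in the authors' deposited table). Mmp10 was at 147.7 and 178.0 and was not called, with a log2 interval of -0.47 to 1.01 from the authors' deposited table. Mmp3 and Mmp10 are also paralogues, so the assignment of their reads may be uncertain. Mmp11, stromelysin in name but not close in sequence, was at 754.9 and 690.6 and was not called.

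Among the remaining MMPs, Mmp28 was at 708.3 in wild type and 216.0 in the knockout, a 3.28-fold fall (log2 fold change -1.71, SE 0.19, adjusted p = 1.13e-18 in the authors' deposited table). Mmp28, or epilysin, is a secreted MMP activated by furin. Mmp19 was at 230.4 and 180.1, Mmp12, the macrophage elastase, at 7.68 and 12.3, and Mmp23 at 3.05 and 3.97. None of these 3 was called.

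A cluster of 10 MMP genes on chromosome 9 held 6 tested members, and these did not move as a block. In gene order they were Mmp13, Mmp12, Mmp1b, Mmp3, Mmp1a and Mmp10, and the other 4, Mmp8, Mmp27, Mmp20 and Mmp7, were not analysed here. Mmp13 and Mmp3 rose, Mmp1b fell between them, and Mmp12, Mmp1a and Mmp10 were not called.

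**Figure D3:**
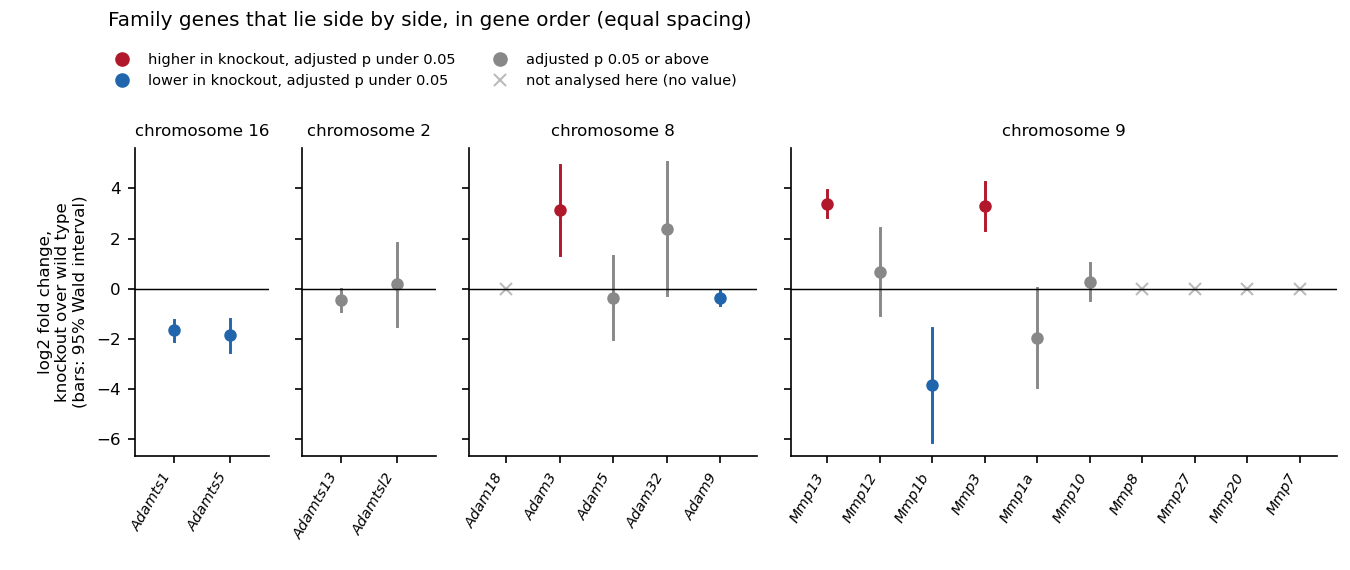
Log2 fold change, knockout over wild type, of family genes that lie side by side, in gene order with equal spacing, for chromosomes 16, 2, 8 and 9, with bars for 95% Wald intervals and crosses for genes not analysed here. On chromosome 9 the genes that rose, Mmp13 and Mmp3, lie on either side of Mmp1b, which fell.

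The promoters of this cluster share a sequence element, shown here because it recurs in all 6 genes whether they rose, fell or were not called. Each line gives the 120 bases before the RefSeq start of transcription, 5′ to 3′ on the strand of the gene, from the GRCm38.p6 build, and the capitals mark TGAGTCA or, on the other strand, TGACTCA, the binding letters of AP-1, a factor known from the promoters of several MMPs. Mmp1b lies on the minus strand and the rest on the plus strand, and for Mmp12 the promoter of its second RefSeq start is shown. The positions are chr9:7272394-7272513 for Mmp13, chr9:7347254-7347373 for Mmp12, chr9:7388027-7388146 for Mmp1b, chr9:7445702-7445821 for Mmp3, chr9:7464021-7464140 for Mmp1a and chr9:7502222-7502341 for Mmp10.
Mmp13: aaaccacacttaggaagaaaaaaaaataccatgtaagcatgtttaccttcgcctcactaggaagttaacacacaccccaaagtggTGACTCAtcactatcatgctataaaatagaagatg
Mmp12: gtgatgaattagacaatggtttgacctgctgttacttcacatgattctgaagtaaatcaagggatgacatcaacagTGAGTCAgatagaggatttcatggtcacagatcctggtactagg
Mmp1b: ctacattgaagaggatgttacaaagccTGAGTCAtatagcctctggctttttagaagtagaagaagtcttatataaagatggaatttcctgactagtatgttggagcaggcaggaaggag
Mmp3: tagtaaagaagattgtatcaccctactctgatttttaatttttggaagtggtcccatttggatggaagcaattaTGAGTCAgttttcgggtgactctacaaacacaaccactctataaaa
Mmp1a: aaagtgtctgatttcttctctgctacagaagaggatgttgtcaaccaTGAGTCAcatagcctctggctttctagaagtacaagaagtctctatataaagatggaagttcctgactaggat
Mmp10: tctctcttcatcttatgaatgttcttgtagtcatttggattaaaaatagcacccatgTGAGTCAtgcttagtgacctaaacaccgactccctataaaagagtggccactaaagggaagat

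The first base of the match lay 35 bases before the start in Mmp13, where it is on the other strand, and 44 in Mmp12, 93 in Mmp1b, 46 in Mmp3, 73 in Mmp1a and 63 in Mmp10. Of the 15 pairs of these 6 sequences, Mmp1a and Mmp1b shared the longest unbroken run, 15 bases, and the longest run in the other 14 pairs was 6 to 9 bases. RefSeq promoters, here 250 bases before to 50 after a start, were found for 29 of the 47 genes, 33 promoters in all. The element stood in 6 of the 7 promoters of the 6 cluster genes and in 1 of the 26 promoters of the other genes, that of Adam19, against 5.20% of all 32851 promoters of this length. The 7 cluster promoters had a median GC content of 40.7%, against 63.5% for the 26 others and 52.7% for all. A match describes the letters and does not show a bound site.

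The letters TGGGAA, or TTCCCA on the other strand, are the core bound by Rbpj, the partner of NICD. They were found in 10 of the 33 promoters (30.3%), against 25.6% of all promoters. By call, they stood in 2 of the 4 promoters of genes that rose, in 4 of the 14 of genes that fell and in 4 of the 15 of genes not called. A set of 4 called genes whose match lies before the start is shown with 20 bases on either side and the match in capitals. They are Adamts14 (chr10:61273614-61273659, minus strand), Adamtsl5 (chr10:80348631-80348676, minus strand), Mmp28 (chr11:83463144-83463189, minus strand) and Timp1 (chrX:20869988-20870033, plus strand), in GRCm38.p6.
Adamts14: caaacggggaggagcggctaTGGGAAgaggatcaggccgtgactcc
Adamtsl5: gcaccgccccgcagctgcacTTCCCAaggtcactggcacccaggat
Mmp28: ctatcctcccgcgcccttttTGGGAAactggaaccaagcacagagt
Timp1: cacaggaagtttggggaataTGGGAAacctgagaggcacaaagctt

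The match of Adamts14 began 220 bases before the start, that of Adamtsl5 208, that of Mmp28 129 and that of Timp1 158. Adamtsl5 rose while the other 3 fell, so genes with these letters moved both ways.

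All 3 tested TIMP inhibitors were called (100%, against 50.5% of all genes), and not in the same direction. Timp2 (ENSMUSG00000017466), which inhibits many MMPs and with Mmp14 takes part in the activation of pro-Mmp2, was at 6007 in wild type and 26341 in the knockout, a 4.38-fold rise with a log2 fold change of 2.13 (SE 0.14, interval 1.86 to 2.41, adjusted p = 1.27e-49) in the authors' deposited table. Timp3 (ENSMUSG00000020044), which is bound to the matrix and also inhibits several ADAM and ADAMTS proteases, was at 6084 and 346.0, a 17.6-fold fall with a log2 fold change of -4.14 (SE 0.22, interval -4.57 to -3.70, adjusted p = 1.35e-74) in the authors' deposited table. Timp1, an inhibitor of most secreted MMPs, was at 3424 and 1914, a 1.79-fold fall with a log2 fold change of -0.84 (SE 0.11, interval -1.06 to -0.62, adjusted p = 5.69e-13) in the authors' deposited table. Timp2 moved in the opposite direction to the other two. Timp4 was not analysed here.

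To rank the level of 1 gene against another, fitted levels were divided by the length in kilobases of the longest coding transcript, which the sums of fitted levels above were not. On that scale Timp1 was the most abundant TIMP in wild type, at 3878 against 1620 for Timp2 and 1288 for Timp3, and Timp2 in the knockout, at 7102 against 2168 for Timp1 and 73.3 for Timp3. The share of the summed level per kilobase held by Timp2 was 23.9% in wild type and 76.0% in the knockout, by Timp1 57.1% and 23.2%, and by Timp3 19.0% and 0.784%. The summed level per kilobase was 6786 and 9343. With the shortest coding transcript in place of the longest, the share of Timp2 was 23.1% and 75.0%.

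**Figure D4:**
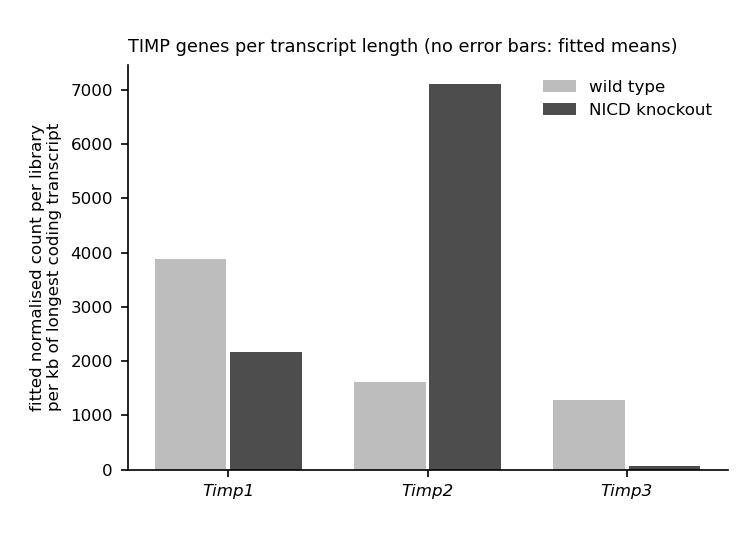
Fitted level of the 3 tested TIMP genes per kilobase of the longest coding transcript, in wild type and in the NICD knockout, with bars from 0 for levels derived from the authors' deposited means and fold changes. The share held by Timp2 goes from 23.9% in wild type to 76.0% in the knockout.

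The order of the 47 genes per kilobase differed between the groups. In wild type Timp1 stood first, followed by Mmp14 (3035), Timp2, Timp3, Adam15 (1204), Adam9 (985.3) and Adamts2 (966.0). In the knockout Timp2 stood first, followed by Timp1, Mmp14 (1601), Adam15 (1184), Adam9 (761.9), Adamtsl5 (615.6) and Mmp13 (585.0). Adamts2 was at 4.88 per kilobase there and Mmp13 at 55.8 in wild type. Spread over libraries is not known for these levels, so neighbours in the order were not tested against each other. The order also depends on the transcript chosen. Over both groups the mean per kilobase of Adam15 was 1194 with the longest coding transcript and 2106 with the shortest. With the longest, Adamts2 held 40.3% of the ADAMTS sum in wild type and 0.981% in the knockout, where the sum went from 2399 to 497. With the shortest, its shares were 34.2% and 0.619%.

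The promoters of the genes with large opposite changes, Timp2, Timp3 and Adamts2, are shown to set beside the chromosome 9 cluster. Each line is the 120 bases before the RefSeq start in GRCm38.p6, with every CG in capitals, at chr11:118355412-118355531 on the minus strand for Timp2, chr10:86300292-86300411 on the plus strand for Timp3 and chr11:50601965-50602084 on the plus strand for Adamts2.
Timp2: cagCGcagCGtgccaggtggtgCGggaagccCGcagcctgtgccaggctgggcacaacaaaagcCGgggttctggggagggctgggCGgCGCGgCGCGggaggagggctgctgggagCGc
Timp3: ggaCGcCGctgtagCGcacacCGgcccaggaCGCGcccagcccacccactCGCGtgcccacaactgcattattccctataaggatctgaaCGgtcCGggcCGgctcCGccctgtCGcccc
Adamts2: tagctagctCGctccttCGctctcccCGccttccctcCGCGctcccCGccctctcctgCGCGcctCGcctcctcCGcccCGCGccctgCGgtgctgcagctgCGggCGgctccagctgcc

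These stretches hold 11, 13 and 15 CG dinucleotides, where those of Mmp13, Mmp3 and Mmp10 hold 1 each and those of Mmp12, Mmp1b and Mmp1a none. In the full promoter window the median CG count was 1 for the 7 cluster promoters (range 0 to 3), 19 for the other 26 (range 2 to 44) and 7 for all promoters. Timp2 rose while Timp3 and Adamts2 fell, so CG-rich promoters stood before genes of both directions.

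Chromosomal position was set beside each change as the median log2 fold change of up to 20 expressed neighbouring genes. For 38 of the 47 members this median lay within 0.3 of 0. It was beyond 0.3 for Adamts1 and Adamts5, which lie side by side on chromosome 16 where the neighbours were lower (-1.15 and -1.20), and for Adamts9 (-0.65), Adamts13 and Adamtsl2 (-0.34 each), Timp2 (0.57), Mmp28 (0.74), Adam11 (0.45) and Adam19 (0.37). With the neighbour median subtracted, Adamts5 and Adam9 lost their calls and the other 23 called members passed. Changes moved by over 1.5 times were those of Adamts1 and Adamts5, given above, of Adamts9, to -5.33, and of Mmp28, to -2.45. The part of chromosomal gain or loss in these results was not tested.

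**Figure D5:**
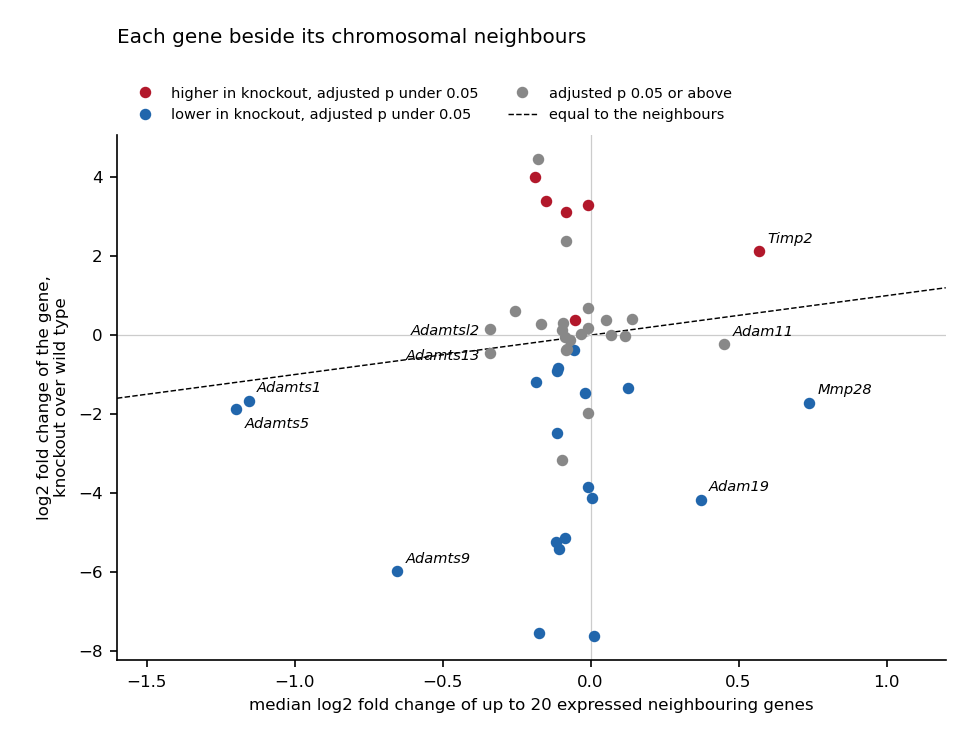
Log2 fold change of each of the 47 genes, knockout over wild type, against the median log2 fold change of up to 20 expressed neighbouring genes, coloured by call, with a dashed line where both are equal. Most points stand near 0 on the horizontal axis, and named points have a neighbour median beyond 0.3 in either direction.

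Several members overlap another gene, and the sources used here do not say whether reads were counted by strand. Adamts9 overlaps A730049H05Rik on the opposite strand, which fell by 10.18 on the log2 scale (SE 1.21, adjusted p = 5.2e-16) in the authors' deposited table. Timp2 overlaps Cep295nl on the same strand, which rose by 2.03 (SE 0.36, adjusted p = 1.27e-07) in the authors' deposited table, with a mean of 83.5 and of 16174 for Timp2, not corrected for length. Mmp19 overlaps Tmem198b, which fell by 1.21 in the authors' deposited table and had a mean of 718.4, with 205.2 for Mmp19. Timp1 overlaps Syn1, which was not called. Reads of such pairs may have been assigned to either gene.

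Of 18 listed activators and regulators of MMPs 12 had a value, and 7 of them (58.3%) fell and none rose in the authors' deposited table, where 50.5% of all genes were called and 25.1% fell. The median log2 fold change of the 12 was -0.39, against 0.02 over all genes. Furin, the convertase that activates Mmp14 and ADAM precursors, was at 5920 in wild type and 2255 in the knockout (log2 fold change -1.39, SE 0.12, adjusted p = 2.4e-28 in the authors' deposited table). Serpine2, an inhibitor of serine proteases, changed by -2.22 and Plat, tissue plasminogen activator, by -1.12. Both proteases and their inhibitors were therefore among the 7. Serpinh1 (34372 and 17523), also counted among the 7, encodes a collagen chaperone. Reck, a membrane-anchored inhibitor of MMPs, was at 105.2 and 130.7 and was not called.

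Some procollagens and the processing enzyme Bmp1 fell with Adamts2, while other genes of these lists rose or were not called. Of 6 fibrillar procollagens, Col3a1 (log2 fold change -3.25, adjusted p = 5.31e-38), Col5a1 (-1.74, adjusted p = 2.02e-18) and Col1a1 (-1.94, adjusted p = 2.14e-12) fell in the authors' deposited table, Col1a2 rose from a low level (15.5 and 37.4), and Col2a1 and Col5a2 were not called, so 66.7% were called against 50.5% of all genes. Bmp1, which removes the carboxy-terminal propeptide, was at 9803 in wild type and 3391 in the knockout, a log2 fold change of -1.53 (SE 0.14, adjusted p = 5.95e-27) in the authors' deposited table. It was 1 of 7 related metalloproteases and partners tested, of which 71.4% were called, against 50.5% of all genes. Of the 7, 3 fell (42.9%, against 25.1% of all genes) and 2 rose (28.6%, against 25.4%). The calls besides Bmp1 were at low levels. Tll1 (2.09 and 18.9) and Pappa2 (1.43 and 29.1) rose, Papln (15.0 and below 1) fell, and Pappa was at 6.78 and below 1. Pcolce (11280 and 12633) and Pcolce2 (679.9 and 806.0) were not called.

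Substrates of the other families moved both ways. Of the 4 tested proteoglycans of the hyalectanases and their relatives, 3 were called (75%, against 50.5% of all genes). Bgn (34.9 and 309.2) and Dcn (below 1 and 69.2) rose and Bcan (13.9 and below 1) fell in the authors' deposited table. Vcan, the versican gene, was at 3421 and 2426 with an adjusted p of 0.0622 there. Of 5 tested fibrillin microfibril genes, 4 were called (80%, against 50.5% of all genes). Ltbp1 (2.37) and Ltbp2 (2.52) rose and Fbn1 (-1.95) and Ltbp4 (-1.27) fell on the log2 scale in the authors' deposited table. Of 14 tested regulators and substrates of ADAM shedding, 3 rose and 7 fell (71.4% called, against 50.5% of all genes). Cx3cl1, a chemokine shed from the membrane, rose by 1.64 and Rhbdf2, a carrier of ADAM proteases, by 1.41, while the growth factors Btc and Areg fell by 3.42 and 1.22 on the log2 scale in the authors' deposited table.

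Markers of the labelled cell type were read in the same way. Of 6 mesenchymal markers 5 had a value, and Thy1 was not analysed here. All 5 were called (100%, against 50.5% of all genes), 3 lower and 2 higher. Vim was at 98030 in wild type and 66646 in the knockout. Pdgfrb fell and Pdgfra rose, so the markers of this lineage did not move together. Of 4 adipocyte markers only Fabp4 had a value, at 4.37 and 307.4, and was called higher. Adipoq, Plin1 and Lep were not analysed here. The 4 endothelial markers summed to 63.6 and 50.1. Of these, Kdr (31.5 and 8.41) was called lower and Pecam1, Cdh5 and Tek were not called (25% called, against 50.5% of all genes). Krt14 was the only 1 of 4 epithelial markers with a value, at 40.6 and 12.2, and was called lower. The part of these changes in the results on metalloproteases was not tested.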

How the data were processed

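Total RNA of 6 mLPS1 libraries, 3 wild type and 3 NICD knockout by the genotype labels, was sequenced. Salmon, DESeq2 and the build mm39 are named, without versions or settings, in the submitters' processing notes. The table the authors deposited has, per the file headers, a mean of normalised counts (treated as a signal), a log2 fold change and its SE on the log2 scale, a Wald score, a p-value and an adjusted p-value for each gene. The deposited Wald score was recomputed to within 1.56e-13, and the adjusted p-value as Benjamini-Hochberg over all genes with a p. Of 14472 rows 2 have no p.

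A gene was called where the adjusted p from the authors' DESeq2 fit was under 0.05. The planned edgeR test was not run, since single-library values were not used here. Intervals are the log2 fold change plus or minus 1.96 SE. Fitted levels assume 3 libraries per group, and a group below 1 normalised count was also set to 1. Precision is the deposited SE, with a median of 0.16 where the mean is at least 100 and 0.77 below that.

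The members and the lists of other genes were chosen with earlier results of these data known. Every member could be named with its level and change. SE, interval and adjusted p were allowed for the TIMPs, for up to 4 members per role with the smallest p, and for up to 2 called with the largest change among means of at least 100. From each list of other genes, up to 4 with the smallest p were allowed, and other list members are given by level only or as not called. One gene of these lists is counted but not reported here by name. Gene order, chromosome and transcript length came from GENCODE M21 (GRCm38), matched by identifier for 99.9% of rows. A neighbour median covered up to 10 expressed protein-coding genes (mean at least 100) on each side. Promoters came from RefSeq (GRCm38.p6), matched by symbol. Alternatives were stricter thresholds, filters on the mean, centring, subtraction of the neighbour median and the floor. The call steps, for any change and for a change over 2-fold, were tested on simulated data. The tools were pandas 2.3.3, numpy 2.4.6, scipy 1.17.1 and matplotlib 3.10.9 in Python 3.11.15.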

Additional observations from a re-analysis of the deposited data

How the results depend on the processing

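The 6 members called higher and 19 called lower became 6 and 18 at an adjusted p under 0.01 (Adam9 lost), 4 and 14 with Bonferroni adjustment, 5 and 14 when the change itself was tested against 1.5-fold, and 4 and 10 against 2-fold. With a mean of at least 100 they were 3 and 15, and with a mean of at least 10 they were 6 and 18, since fewer genes are tested there. Centring on expressed genes gave 6 and 18 (Adam9 at -0.32, adjusted p = 0.0517 from the shifted DESeq2 estimate), subtracting the neighbour median 6 and 17, and centring on all genes, chosen after seeing the data, 6 and 19. Signs turned only for members that were not called: Adam15 to 0.0253 and Adamts7 to 0.0137 when centred on expressed genes, and Adamts7 to 0.0502 and Adamtsl4 to -0.0580 with the neighbour median subtracted. With the group below 1 normalised count set to it, the log2 fold change of Adamts17 was -5.0 in place of -7.55 and that of Mmp24 2.06 in place of 4.47.

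No paired analysis was possible because single-library values were not used here, and for the same reason leaving out a library, another count test or normalisation, and a check of libraries that stand apart were not run. Members with a mean below 10 have wide errors, so a p above the threshold does not show an equal level there. The direction of every change rests on the name of the deposited comparison.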
